A study of Mus musculus with 8 samples.

Results

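The 10 genes described here encode the regulatory proteins of the skeletal muscle thin filament, and all 10 were found among the 14012 genes of the count table by their symbols. They are 2 genes of troponin I (Tnni1 and Tnni2), 3 of troponin T (Tnnt1, Tnnt2 and Tnnt3), 2 of troponin C (Tnnc1 and Tnnc2) and 3 of tropomyosin (Tpm1, Tpm2 and Tpm3). RNA of quadriceps femoris, a large and mostly fast muscle of the mouse thigh, was sequenced from 4 mice labelled knockout (KO, Grpel1 smk -/- in the labels and Grpel1 skm-/- in the methods) and 4 mice labelled WT (Grpel1 flox/flox), 1 library per mouse. The labels call the second group control mice, and both groups carry the floxed Grpel1 allele, which came from embryonic stem cells put into C57BL/6NCrl blastocysts. In the knockout mice a tamoxifen-inducible Cre recombinase under the human skeletal actin promoter deletes Grpel1, a nucleotide exchange factor of the mitochondrial Hsp70 chaperone, in muscle fibres, and the other cells of the tissue keep the gene. Tamoxifen was given on 5 days from the age of 5 weeks, and the mice reached their end point within 5 weeks. Whether the control mice of these libraries carried Cre or received tamoxifen is not stated in the labels, so an effect of either cannot be told apart from that of the deletion.

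Each control library held 16017565 to 18813042 counts and each knockout library 16424608 to 20361144. Levels are given as CPM, counts brought to a common library size with edgeR's TMM factors for composition (0.747 to 0.844 in control muscle and 1.19 to 1.33 in knockout muscle), and levels of different genes are compared only as CPM per kb of exon. The count of the whole Grpel1 gene was 64.1 to 71.2 CPM in the control and 59.9 to 71.9 CPM in the knockout libraries, with a log2 fold change of -0.066 (adjusted p = 0.49, edgeR's quasi-likelihood test). That count does not check the labels, and every direction below rests on them. All 8 skeletal muscle markers were detected in every library. Of these, 6 passed the threshold lower and 1 higher (adjusted p under 0.01, edgeR), beside 21.1% lower and 23.6% higher among all genes. Their median log2 fold change was -1.04, and their sum was 176000 to 231900 CPM in control muscle and 56170 to 77550 CPM in knockout muscle. The sum was made up largely of Myh4 and Acta1, with means of 103900 and 44670 CPM in control muscle. In knockout muscle their means were 20580 and 15460 CPM. Both genes are also among those described below, so the sum is no separate measure of fibre content. The cardiac list was summed at 3.56 to 7.46 CPM in control muscle and 2.47 to 4.53 CPM in knockout muscle. In bulk tissue, fewer muscle fibres and less RNA per fibre cannot be told apart.

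Contraction is switched on when calcium binds troponin C, the calcium sensor of the troponin complex. Troponin I, the inhibitory subunit, then lets go of actin, and troponin T, which ties the complex to tropomyosin, passes the change on so that tropomyosin moves off the myosin binding sites. Fast and slow fibres build the complex from different genes: Tnni2, Tnnt3 and Tnnc2 encode the fast proteins, Tnni1 and Tnnt1 the slow ones, and Tnnc1 the form shared by slow fibres and heart. Tnnt2 encodes cardiac troponin T, which is also made in developing skeletal muscle. Among the tropomyosins, Tpm1 encodes the alpha chain of fast fibres and heart, Tpm3 the alpha chain of slow fibres, and Tpm2 the beta chain, which is found in both fibre types.

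The slow and cardiac genes rose and the fast genes fell. All 10 genes passed an adjusted p under 0.01 (edgeR's quasi-likelihood test over 14012 genes, Benjamini-Hochberg adjustment), 5 of them higher in the knockout libraries (Tnni1, Tnnt1, Tnnt2, Tnnc1 and Tpm3) and 5 lower (Tnni2, Tnnt3, Tnnc2, Tpm1 and Tpm2). The same threshold was passed by 23.6% of all genes in the higher and 21.1% in the lower direction. In 9 of the 10 genes the control and knockout values did not overlap, against 29% of all genes without overlap and higher and 24.4% without overlap and lower. The exception was Tpm3. The median log2 fold change was 0.054 over the 10 genes and 0.065 over all genes, with the former lying between the rising and the falling group. The slow genes started from levels far below those of the fast genes and remained there, as the isoform shares show.

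**Figure D1:**
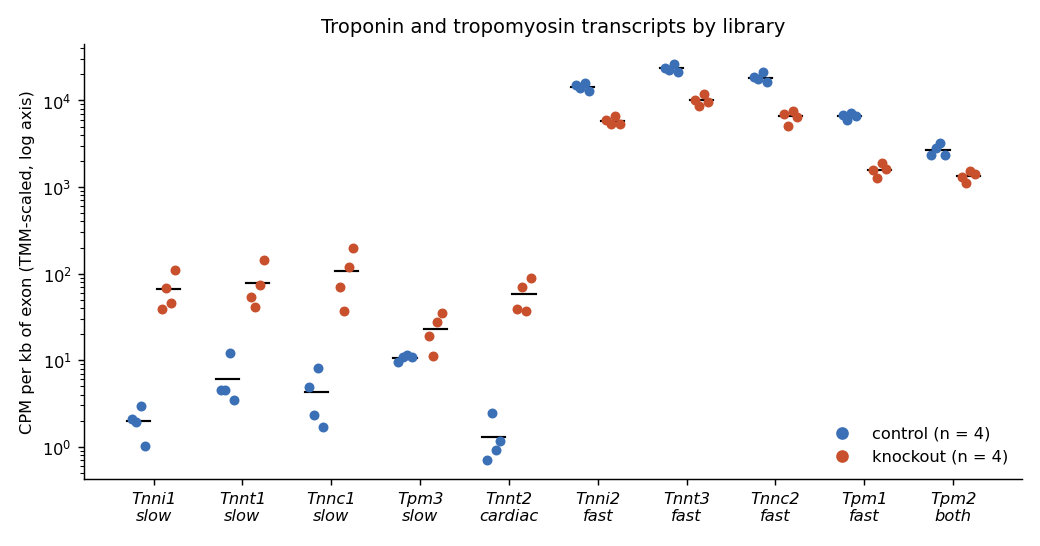
Level of each gene in every library, as CPM per kb of exon on a log axis, with controls in blue, knockouts in orange and the mean as a bar. The 5 slow or cardiac genes on the left lie higher in the knockout libraries and the 5 genes on the right lower, and the groups overlap in Tpm3 alone.

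Slow troponin I was close to the limit of counting in the control muscle. Tnni1 (chromosome 1, 135799421 to 135810989, GRCm38) had 29, 33, 46 and 18 counts in controls 1 to 4 and 1049, 1663, 1233 and 3104 counts in knockouts 1 to 4. As levels these were 2.34, 2.16, 3.29 and 1.13 CPM against 43.7, 76.2, 50.9 and 123 CPM. Every knockout library lay above every control, the lowest of them 13.3-fold above the highest control. The log2 fold change was 5.06 (SE 0.41, adjusted p = 4.7e-06), a 33.3-fold difference, and 69 of the 14012 genes had a larger one.

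Fast troponin I showed the opposite direction at a far higher level. Tnni2 (chromosome 7, 142442468 to 142444405) had 9968, 9222, 10730 and 8651 CPM in controls 1 to 4 and 4007, 3557, 4401 and 3599 CPM in knockouts 1 to 4. All knockout libraries were lower than all controls, by 1.97-fold between the nearest pair. Its log2 fold change was -1.31 (SE 0.12, adjusted p = 1.2e-05). The coefficient of variation was 9.36% in control muscle and 10.2% in knockout muscle, where Tnni1 varied by 39.6% and 49.0%.

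Of the troponin T genes, the slow Tnnt1 (chromosome 7, 4504570 to 4515975) had 57, 72, 172 and 56 counts in control muscle and 1328, 923, 1845 and 3682 counts in knockout muscle. This gave 4.61, 4.71, 12.3 and 3.53 CPM against 55.4, 42.3, 76.2 and 146 CPM. Control 3 stood above the other controls, but the lowest knockout was still 3.43-fold above it. Its log2 fold change was 3.68 (SE 0.48, adjusted p = 1.1e-04), or 12.8-fold.

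The cardiac gene Tnnt2 (chromosome 1, 135836334 to 135852268) had the largest log2 fold change of the 10 genes, with 59 genes of the table above it. Its counts were 11, 47, 16 and 23 in control muscle and 1170, 1919, 1136 and 2788 in knockout muscle. At 0.889, 3.08, 1.15 and 1.45 CPM against 48.8, 87.9, 46.9 and 111 CPM the groups were 15.2-fold apart at their nearest values. This is a log2 fold change of 5.45 (SE 0.42, adjusted p = 3.2e-06), or 43.8-fold. Tnni3, the troponin I gene of the adult heart, did not move on that scale: it had 5, 3, 1 and 2 counts in control muscle and 12, 7, 11 and 26 in knockout muscle, with an adjusted p of 0.034 (edgeR).

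Fast troponin T had the highest level of the 10 genes per exon length, 23660 ± 2130 CPM per kb in control muscle (SD, n = 4). Tnnt3 (chromosome 7, 142498836 to 142516009) had 26650, 25540, 29760 and 24150 CPM in controls 1 to 4 and 11420, 9798, 13210 and 10740 CPM in knockouts 1 to 4. The groups did not overlap, and the nearest values differed by 1.83-fold. Tnnt3 had a log2 fold change of -1.23 (SE 0.14, adjusted p = 5.1e-05). Its span overlaps that of Prr33 on the opposite strand, and whether reads were counted by strand is not given in the sources used here. Prr33 was at 271.5 CPM in control muscle and 81.6 CPM in knockout muscle, a small part of the Tnnt3 level.

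Troponin C followed the same pattern. Slow and cardiac Tnnc1 (chromosome 14, 31208312 to 31211711) had 43, 25, 79 and 19 counts in control muscle and 1183, 571, 2055 and 3476 in knockout muscle, which were 3.47, 1.64, 5.65 and 1.2 CPM against 49.3, 26.2, 84.8 and 138 CPM. It was the most variable of the 10 genes, with a 5.28-fold range within the knockout and a 4.72-fold range within the control libraries, and yet the groups did not overlap. Its log2 fold change was 4.67 (SE 0.60, adjusted p = 1.0e-04), or 25.4-fold.

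Fast Tnnc2 (chromosome 2, 164777161 to 164779734) had 12850, 12210, 14720 and 11250 CPM in controls 1 to 4 and 4840, 3529, 5279 and 4501 CPM in knockouts 1 to 4. The lowest control was 2.13-fold above the highest knockout. The log2 fold change was -1.49 (SE 0.15, adjusted p = 2.1e-05). Among stretches of 75 bases in its annotated transcripts, 35% also occur in transcripts assigned to Ube2c, so part of its reads could have been lost or shared in the counting.

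The tropomyosin genes moved in both directions too. Tpm1 (chromosome 9, 67022593 to 67049213) fell furthest of all 10 genes, from 22450, 19450, 23640 and 21440 CPM in controls 1 to 4 to 5160, 4128, 6176 and 5256 CPM in knockouts 1 to 4. Its log2 fold change was -2.07 (SE 0.15, adjusted p = 2.7e-06), a 4.2-fold lower level, and 229 genes of the table fell further. The nearest values of the 2 groups were 3.15-fold apart.

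Tpm2 (chromosome 4, 43513726 to 43523554) fell least of the 5 lower genes. It had 7735, 9445, 10620 and 7863 CPM in control muscle and 4365, 3662, 5062 and 4762 CPM in knockout muscle, 1.53-fold apart at the nearest values. The log2 fold change was -1.0 (SE 0.15, adjusted p = 2.7e-04). With library totals alone in place of the TMM factors it was -0.33 with an adjusted p of 0.027 (edgeR), which is past the threshold no longer. That scaling moved the median of all genes to 0.73, and relative to the median Tpm2 stood at -1.06 under either scaling.

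Tpm3 (chromosome 3, 90072651 to 90100902) rose least of the 5 higher genes. It had 32.1, 36.5, 38.1 and 36.4 CPM in control muscle, a coefficient of variation of 7.19%, and 62.7, 37.8, 91.5 and 116 CPM in knockout muscle. Knockout 2 lay within the control range and the other 3 knockouts above it. The log2 fold change was 1.11 (SE 0.28, adjusted p = 0.0066), or 2.15-fold. Without knockout 2 it was 1.32 with an adjusted p of 3.3e-04 (edgeR), and the adjusted p passed 0.01 when any 1 control, knockout 3 or knockout 4 was left out (0.0149 to 0.0231). Of the 75-base stretches in its transcripts, 19.2% also occur in 4 other genes, among them Tpm3-rs7, so reads there may have been dropped as multimapping.

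Tropomyosin genes also make other chains in non-muscle cells by other promoters or splicing, and a count per gene adds them to the muscle chains. The summed level of 9 smooth muscle markers was 838.9 to 963.5 CPM in control muscle and 430.9 to 517 CPM in knockout muscle. Of the 9, 7 passed the threshold lower and none higher, beside 21.1% lower and 23.6% higher among all genes. The sum was made up largely of Synpo2, at 548.6 to 566.6 CPM in control muscle and 195.1 to 268.7 CPM in knockout muscle. Acta2 did not pass, with a log2 fold change of 0.50, nor did Actg2, at -1.06. The sum is therefore no measure of smooth muscle cells, and their part in the tropomyosin values was not tested. Tpm4, a tropomyosin gene mainly of non-muscle cells, had 33.5 to 57.9 CPM in control muscle and 26.7 to 39.6 CPM in knockout muscle, with a log2 fold change of -0.62 (adjusted p = 0.017, edgeR). Its groups overlapped and its adjusted p missed the threshold.

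The ratio of the slow to the fast gene within a library needs no scaling between libraries, and it was higher in every knockout than in every control for all 4 pairs. For troponin I, the library had 0.00785 to 0.0184 Tnni1 per 100 Tnni2 (counts per exon length) in control muscle and 0.654 to 2.05 in knockout muscle. The mean log2 ratio was -12.91 ± 0.52 (SD, n = 4) against -6.58 ± 0.78 (SD, n = 4), a difference of 6.33, or 80.4-fold. An exact permutation test over the 70 assignments of 4 against 4 gave a two-sided p of 0.0286, the smallest this design allows, and the same value after adjustment over the 4 pairs. Each of the other 3 pairs had the same p by that exact permutation test.

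For troponin T, Tnnt1 per 100 Tnnt3 went from 0.0159 to 0.045 in control muscle and from 0.47 to 1.48 in knockout muscle, a difference of 4.93 on the log2 scale, or 30.4-fold. For troponin C, Tnnc1 per 100 Tnnc2 ranged over 0.0105 to 0.0379 in control muscle and 0.731 to 3.03 in knockout muscle, a difference of 6.15 or 70.8-fold. For the alpha tropomyosins, Tpm3 per 100 Tpm1 ranged over 0.14 to 0.184 and 0.898 to 2.16, a difference of 3.07 or 8.39-fold. The gap between the lowest knockout and the highest control, on the log2 scale, was 5.15 for troponin I, 3.38 for troponin T, 4.27 for troponin C and 2.29 for tropomyosin. The tropomyosin ratio started highest and moved least.

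**Figure D2:**
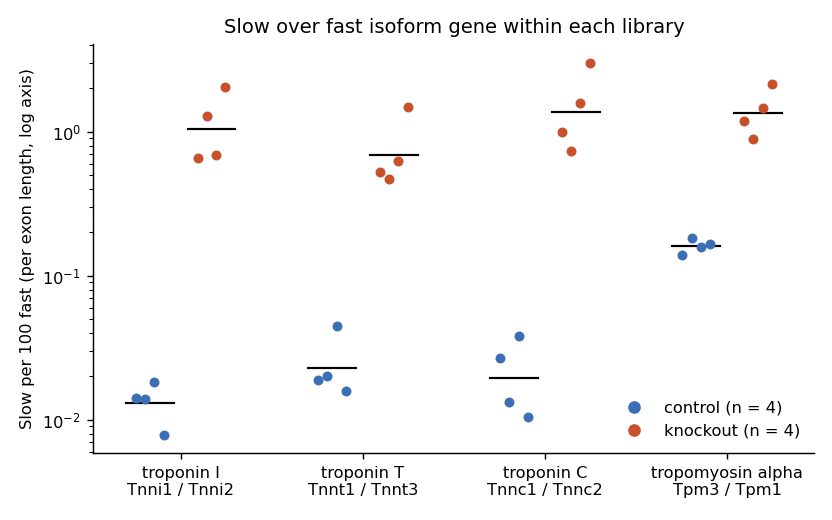
Counts per exon length of the slow gene per 100 of the fast gene in each library, on a log axis, with controls in blue, knockouts in orange and the geometric mean of 4 libraries as a bar. In every pair all 4 knockouts lie above all 4 controls, and none of the knockouts exceeds 3.03 slow per 100 fast.

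Despite folds of this size, the troponin RNA of the knockout muscle still came almost only from the fast genes. Tnni1 made up 1.15% ± 0.64 (SD, n = 4) of troponin I RNA in knockout muscle against 0.0136% ± 0.0043 in control muscle, per exon length. No protein was measured in these libraries. The corresponding shares were 0.764% ± 0.461 against 0.025% ± 0.0135 for Tnnt1, 0.597% ± 0.293 against 0.00564% ± 0.00358 for Tnnt2, and 1.55% ± 0.99 against 0.0221% ± 0.0127 for Tnnc1. Knockout 4 had the largest slow share in each of the 3 troponin families, 2.01% for Tnni1, 1.45% for Tnnt1 and 2.94% for Tnnc1. The gain of the slow gene amounted to 0.742% of the loss of the fast gene in troponin I, 0.527% in troponin T, 0.859% in troponin C and 0.244% between Tpm3 and Tpm1 (CPM per kb, differences of group means).

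The composition changed on a larger scale only in tropomyosin, between the alpha and the beta chain. Tpm1 held 74.6%, 67.5%, 69.2% and 73.4% of the summed tropomyosin level in controls 1 to 4 and 54.2%, 53.1%, 54.9% and 52.2% in knockouts 1 to 4. Tpm2 went from 25.3%, 32.3%, 30.7% and 26.5% to 45.2%, 46.4%, 44.3% and 46.7%. The shares of the 2 groups did not overlap, and the spread was smaller among the knockouts (SD 1.17 percentage points for Tpm1) than among the controls (3.33). Tpm3 rose from 0.115% ± 0.0096 to 0.763% ± 0.278 (n = 4 per group, SD) of the sum. Both larger chains fell in level, Tpm1 more than Tpm2.

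Summed over each family, the transcripts fell together. Troponin I had 14460 ± 1353 CPM per kb in control muscle and 5900 ± 571 in knockout muscle (n = 4 per group, SD), 40.8% of the control mean. Troponin T stood at 43.1% of its control mean (23670 ± 2133 to 10210 ± 1271), troponin C at 36.1% (18410 ± 2115 to 6653 ± 1105) and tropomyosin at 31.6% (9323 ± 747 to 2945 ± 441). With library totals alone, the log2 ratios of these sums were nearer to 0, at -0.62 for troponin I, -0.55 for troponin T, -0.80 for troponin C and -1.0 for tropomyosin, against -1.29, -1.21, -1.47 and -1.66 with TMM factors. The 10 genes together took 6.30% ± 0.26 of all counts in control muscle and 3.74% ± 0.33 in knockout muscle (n = 4 per group, SD).

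The families did not fall in equal proportion. The summed troponin T level was 1.64 ± 0.032 times the troponin I level in control muscle and 1.73 ± 0.072 in knockout muscle, with overlapping values. Tropomyosin over troponin I was 0.646 ± 0.031 against 0.498 ± 0.051, with every knockout (0.439 to 0.557) below every control (0.614 to 0.687). Troponin C over troponin I was 1.27 ± 0.036 against 1.12 ± 0.12, again without overlap, as the highest knockout was at 1.22 and the lowest control at 1.24. Errors are SDs over 4 libraries, the values are CPM per kb, and these ratios were not tested. Their levels, like others compared between genes, depend on the deposited exon widths, 667 bases for Tnni2 and 3279 to 3340 for the tropomyosin genes. How well these widths match the transcripts present in the muscle was not tested.

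**Figure D3:**
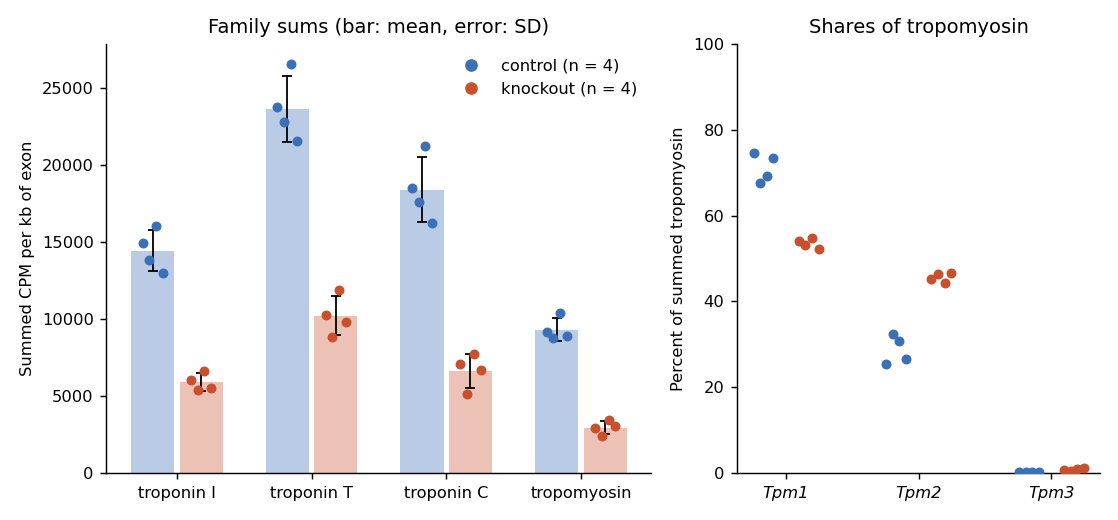
Left, summed CPM per kb of exon for each family, with bars for the mean, error bars for the SD and points for the 4 libraries of each group. Right, percent of the summed tropomyosin level held by each gene in each library, where Tpm1 lies at 67.5% to 74.6% in control muscle and 52.2% to 54.9% in knockout muscle.

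The rising genes did not order the knockout mice in the same way. Knockout 4 was highest in all 5. After it, Tnnt1, Tnnc1 and Tpm3 followed in the order knockout 3, 1 and 2, an order shared by 4.73% of all genes of the table and by Myh7, the myosin heavy chain of slow fibres. Tnni1 and Tnnt2 had knockout 2 in second place, as did Myh3, the embryonic myosin heavy chain, and for these 3 genes knockouts 4 and 2 were the highest pair, as for 16.6% of all genes. The orders of these 5 genes were the same with library totals alone. The comparison with Myh7 and Myh3 was chosen after the values were seen, and the lists they come from were divided. Of 12 slow fibre genes, 5 had the order of Tnnt1 and 4 had the highest pair of Tnni1. Of 13 embryonic and denervation genes, 1 had the order of Tnnt1, the embryonic light chain Myl4, and 9 had the highest pair of Tnni1. A full order is stricter than a highest pair, so the counts for Tnnt1 and Tnni1 cannot be set against each other. The full order of Tnni1, shared by 3.18% of all genes, was held by Csrp3 in the slow fibre list. In the other list Myh3, Myog and Chrng held it. Knockouts 3 and 4, the highest pair of Tnnt1, were also that of Myh7b and Mb in the slow fibre list and of Runx1 in the other.

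Knockout 2 shows the difference most plainly. Myh7 was at 6.18 CPM there, within the control range of 3.27 to 39.9 CPM, and at 172.5, 280 and 527.8 CPM in knockouts 1, 3 and 4. In the same library Tnni1 (76.2 CPM) and Tnnt2 (87.9 CPM) were above their levels in knockouts 1 and 3, and Myh3 was at 419 CPM against 176.5 CPM in knockout 1, 191.5 CPM in knockout 3 and 460.2 CPM in knockout 4. Tnnt1 and Tnnc1 were lowest in knockout 2 but, unlike Myh7 and Tpm3, above every control. Over the groups, Myh7 had a log2 fold change of 3.93 with an SE of 1.11 and an adjusted p of 0.012 (edgeR), and its groups overlapped.

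**Figure D4:**
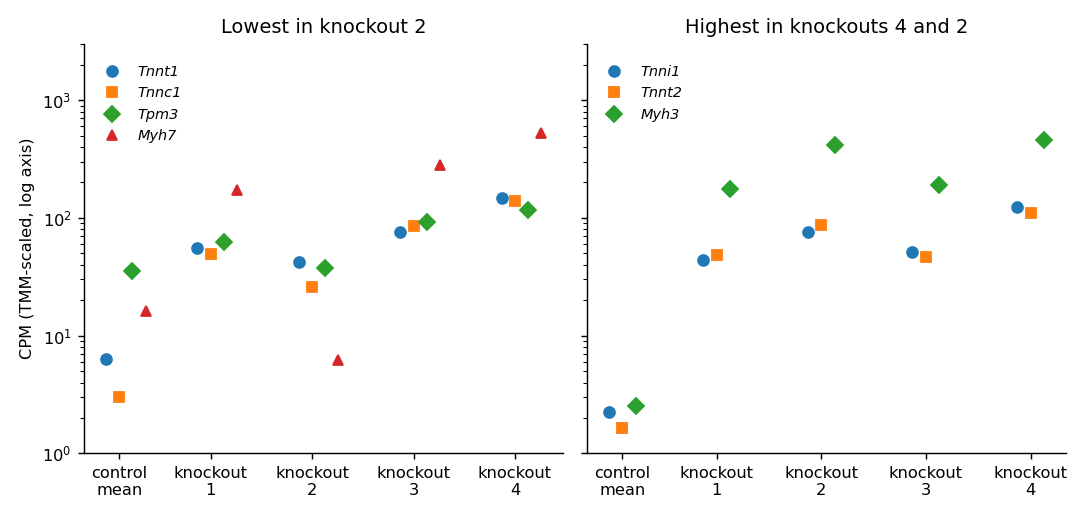
CPM on a log axis in knockout libraries 1 to 4, with the control mean at the left of each panel. Tnnt1, Tnnc1, Tpm3 and Myh7 (left) are lowest in knockout 2, where Myh7 is at 6.18 CPM, and Tnni1, Tnnt2 and Myh3 (right) are highest in knockouts 4 and 2.

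The falling genes varied less between mice and had another order. Knockout 3 was highest and knockout 2 lowest in each of Tnni2, Tnnt3, Tnnc2, Tpm1 and Tpm2, with ranges of 1.24-fold to 1.5-fold within the knockouts. Under library totals alone knockout 4 was lowest in Tnni2 and highest in Tpm2. Among the controls, control 3 was highest in 9 of the 10 genes with TMM factors, Tnnt2 being the exception, and it was also the control with the most Myh7. Under library totals alone control 4 was above control 3 in Tpm1 (340197 against 330315 counts) and Tpm3 (577 against 532 counts).

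The start sites carry short motifs known from muscle promoters. RefSeq windows on GRCm38.p6 were matched by symbol for 8 of the 10 genes, 11 windows in all, and the 250 bases before each start were searched on both strands for an E-box (CANNTG, bound by myogenic factors such as MyoD), an MCAT element (CATTCC, bound by TEAD factors), a TATA box (TATAAA), a MEF3 site (TCAGGTTT), a CArG box and a MEF2 site. No motif overlapped another in the windows shown. All 11 windows held an E-box, as did 66.2% of all 32851 windows. The 11 are not all separate, as those of Tnni1 have starts 90 bases apart, overlap and share E-boxes. An MCAT element was found at Tnnc1, Tnnt2 and Tpm1 (12.6% of all windows) and the letters TATAAA at Tnnt1 (12.4% of all windows). Only exact letters were searched, so other forms of a TATA box, such as tatataa in the Tnnc1 window, were not counted. The letters of the MEF3 site (1.18% of all windows), the CArG box (1.47%) and the MEF2 site (0.508%) were in none of the 11. The windows of the 4 genes with the largest rise and of 2 that fell are shown so that both directions can be read side by side, 5′ to 3′ with the start just after the last base and the motifs in capitals.
Tnni1, chr1:135799171-135799420, plus strand: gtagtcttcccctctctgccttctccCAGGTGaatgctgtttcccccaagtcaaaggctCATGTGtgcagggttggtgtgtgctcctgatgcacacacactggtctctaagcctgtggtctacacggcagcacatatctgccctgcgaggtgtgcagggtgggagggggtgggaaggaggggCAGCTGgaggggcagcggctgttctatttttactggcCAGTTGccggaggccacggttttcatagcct
Tnnt1, chr7:4515976-4516225, minus strand: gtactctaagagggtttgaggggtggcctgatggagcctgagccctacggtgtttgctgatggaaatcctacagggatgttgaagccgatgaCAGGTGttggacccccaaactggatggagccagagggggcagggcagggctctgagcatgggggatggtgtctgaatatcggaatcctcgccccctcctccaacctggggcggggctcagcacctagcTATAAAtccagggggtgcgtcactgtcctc
Tnnc1, chr14:31208062-31208311, plus strand: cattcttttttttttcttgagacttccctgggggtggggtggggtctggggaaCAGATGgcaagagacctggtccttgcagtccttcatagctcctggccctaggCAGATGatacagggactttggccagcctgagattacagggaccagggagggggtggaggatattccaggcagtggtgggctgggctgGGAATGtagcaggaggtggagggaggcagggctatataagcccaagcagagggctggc
Tnnt2, chr1:135836084-135836333, plus strand: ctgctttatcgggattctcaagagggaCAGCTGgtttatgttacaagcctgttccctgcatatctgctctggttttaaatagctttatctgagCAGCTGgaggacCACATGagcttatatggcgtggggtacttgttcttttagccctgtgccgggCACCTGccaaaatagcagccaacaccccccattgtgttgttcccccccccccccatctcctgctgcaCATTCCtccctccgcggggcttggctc
Tnnc2, chr2:164779735-164779984, minus strand: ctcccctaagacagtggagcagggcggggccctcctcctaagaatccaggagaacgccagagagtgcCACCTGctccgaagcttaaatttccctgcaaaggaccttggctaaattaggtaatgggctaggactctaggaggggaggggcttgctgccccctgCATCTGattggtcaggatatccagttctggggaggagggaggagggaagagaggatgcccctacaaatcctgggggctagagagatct
Tpm1, chr9:67049214-67049463, minus strand: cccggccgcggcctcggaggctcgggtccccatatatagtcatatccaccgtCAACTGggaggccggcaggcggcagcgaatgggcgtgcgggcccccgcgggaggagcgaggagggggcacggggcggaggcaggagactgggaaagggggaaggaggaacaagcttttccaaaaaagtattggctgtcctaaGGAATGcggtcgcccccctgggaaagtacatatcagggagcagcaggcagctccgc
The rising Tnnc1 and Tnnt2 and the falling Tpm1 hold the MCAT letters within 60 bases of the start, and the number of E-boxes is 4 in Tnni1 and Tnnt2, 2 in Tnnc1 and Tnnc2 and 1 in Tnnt1 and Tpm1. These matches describe letters, and no binding was measured here.

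Troponin genes lie in pairs on the chromosomes, a troponin I gene beside a troponin T gene. Tnni1 and Tnnt2 are 25344 bases apart on chromosome 1 with no gene of the table between them, and both rose with the same highest pair of knockout libraries. Tnni2 and Tnnt3 are 54430 bases apart on chromosome 7, and both fell by a like amount (log2 fold changes of -1.31 and -1.23). Between them lies Lsp1, a leukocyte gene, at 32.2 to 35.3 CPM in control muscle and 28.6 to 39.6 CPM in knockout muscle (log2 fold change -0.026). Tnnt1 lies 2332 bases from Tnni3, whose counts are given with those of Tnnt2 and stayed at 26 or fewer in every library while Tnnt1 reached 3682.

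The proteins around troponin and tropomyosin on the thin filament were followed in a list of 27 measured partners. Of these, 12 passed the threshold lower, 2 higher and 13 did not, with a median log2 fold change of -0.33, beside 21.1% lower and 23.6% higher among all genes. Skeletal alpha-actin (Acta1), the filament itself, went from 44670 ± 4013 to 15460 ± 1450 CPM (log2 fold change -1.53), and nebulin (Neb), which spans the filament, from 5998 ± 365 to 2995 ± 391 CPM (-1.0, SD and n = 4 for each). Cardiac actin (Actc1, -1.47), the pointed-end cap tropomodulin 1 (Tmod1, -1.63), the formin Fhod3 (-1.59) and Kbtbd13 (-1.72) fell as well. Leiomodin 2 (Lmod2), a nucleator that lengthens actin filaments, rose from 99.3 ± 54.7 to 427.9 ± 94.9 CPM (log2 fold change 2.11, SE 0.38), and cofilin 2 (Cfl2), an actin-severing protein named after its value was seen, rose by 0.76. With library totals alone, 12 partners were higher and 8 lower, where 8498 of all genes were higher and 873 lower against 3303 and 2962 with TMM factors.

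The other genes of fast fibres moved with the fast troponins. Of 15 fast fibre genes, 13 fell, 1 rose and 1 did not pass, with a median log2 fold change of -1.78. Over all genes the shares were 21.1% lower and 23.6% higher. The fast myosin heavy chain Myh4 fell from 103900 ± 16660 to 20580 ± 4678 CPM (SD over 4 per group, log2 fold change -2.34), and the kinase of the fast light chain (Mylk2, -2.52), the fast myosin binding protein C (Mybpc2, -2.33), alpha-actinin 3 (Actn3, -2.33), parvalbumin (Pvalb, -2.30) and Pgam2 (-2.13) fell by similar amounts. The fast troponins Tnni2, Tnnt3 and Tnnc2 lay above the median of this list, and Tpm1 below it. The gene that rose was Myh1, the myosin heavy chain of IIx fibres, at 1.15, and Myh2, that of IIa fibres, had 0.21 with an adjusted p of 0.70 (edgeR). Both were named after their values were seen.

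The slow fibre list was mixed. Of 12 genes 7 rose, 1 fell and 4 did not pass, beside 23.6% higher and 21.1% lower among all genes. The median log2 fold change was 2.09, below that of each slow troponin. Sarcolipin (Sln), an inhibitor of the calcium pump, had 5 to 8 counts in control muscle and 1323 to 2481 in knockout muscle (log2 fold change 7.33), and Myoz2 (3.18), calsequestrin 2 (Casq2, 2.76), Csrp3 (2.22) and the slow calcium pump (Atp2a2, 1.95) rose. Myoglobin (Mb), the oxygen-binding protein of oxidative fibres, fell from 1196 ± 415 to 135 ± 13.6 CPM (SD over 4 per group, log2 fold change -3.15). The 4 that did not pass were Myh7, Myl3, Myh7b and Ankrd2, the last 3 named after their values were seen, at 0.21, 0.47 and 0.50.

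Most genes of embryonic and denervated muscle rose. Of 13 measured, 11 rose, 1 fell and 1 did not pass, beside 23.6% higher and 21.1% lower among all genes. The median log2 fold change was 3.39. The embryonic myosin Myh3 went from 2.55 ± 0.31 to 311.8 ± 148.7 CPM (log2 fold change 6.92) and the perinatal Myh8 from 6.41 ± 1.01 to 673.3 ± 270.6 CPM (6.72, SD and n = 4 for each). The fetal acetylcholine receptor subunit Chrng had 0 to 5 counts in control muscle and 545 to 1098 in knockout muscle. Myl4 (5.73), Myog (3.96) and Chrnd (3.94) rose too. The 1 that fell was Actc1, a fetal actin that also stands among the thin filament partners, and Myod1, named after its value was seen, had 0.14 (adjusted p = 0.68, edgeR).

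**Figure D5:**
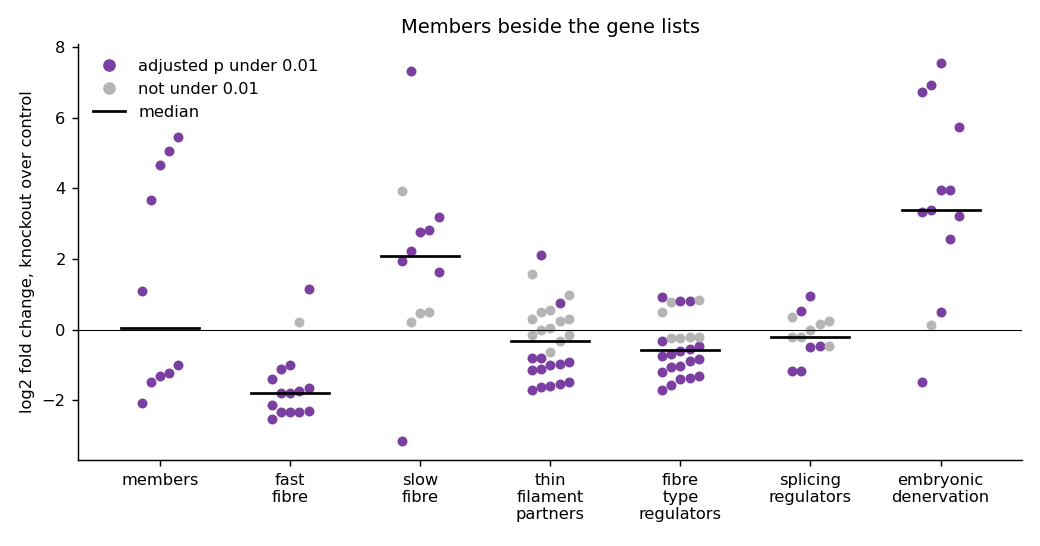
Log2 fold change, knockout over control, of each of the 10 genes and of the genes in 6 lists, in purple where the adjusted p was under 0.01 and grey otherwise, with the median as a bar. The medians run from -1.78 in the fast fibre list to 3.39 in the embryonic and denervation list, and the 10 genes divide into 5 above and 5 below 0.

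Regulators of fibre type fell more often than they rose. Of 26 genes, 16 were lower, 3 higher and 7 did not pass, with a median log2 fold change of -0.57. Among all genes 21.1% were lower and 23.6% higher. Sox6, a repressor of slow fibre genes, went from 177 ± 10.5 to 69.4 ± 8.28 CPM (SD over 4 per group, log2 fold change -1.35), and Maf (-1.31) and Mafa (-1.41), factors that act on fast myosin genes, fell beside it. Eya1, a coactivator of the fast fibre program, fell by 1.19 on the log2 scale, and Rcan1, an inhibitor of calcineurin, by 1.56. The 3 that rose were Eya3 (0.80), Tead4 (0.94) and Vgll2 (0.82), named after their values were seen. With library totals alone the counts were 7 lower and 11 higher, where 873 of all 14012 genes were lower and 8498 higher. No link between these factors and the troponin genes was tested.

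Splicing factors matter for these genes because troponin T and tropomyosin transcripts are spliced in many forms that a count per gene does not resolve. Of 13 such factors, 4 fell, 2 rose and 7 did not pass, with a median log2 fold change of -0.21, beside 21.1% lower and 23.6% higher among all genes. Mbnl1 went from 457 ± 29.3 to 202 ± 19.8 CPM (log2 fold change -1.18) and Rbfox1 from 362 ± 42.3 to 161 ± 21.4 CPM (-1.17, SD and n = 4 for each). Mbnl2 (-0.48) and Fxr1 (-0.47) also fell and Rbfox2 (0.94) and Ptbp1 (0.52) rose, all 4 named after their values were seen. With library totals alone 2 were lower and 7 higher, where 873 of all 14012 genes were lower and 8498 higher. The forms of Tnnt3 or Tpm1 were not analysed here.

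Markers of other cell types moved as follows. Of the measured fibroblast markers 5 of 8 and of the endothelial markers 5 of 6 passed the threshold lower, with none higher. Of the macrophage markers 1 of 8 passed higher. The shares over all genes were 21.1% lower and 23.6% higher. Summed, the fibroblast list was at 1851 to 2682 CPM in control muscle and 705 to 1119 CPM in knockout muscle, and the endothelial list at 283 to 422 against 205 to 231 CPM. Macrophage markers were at 78.6 to 201 against 163 to 300 CPM. Adipocyte and Schwann cell lists had no gene past the threshold in either direction (6 and 5 genes), and of 5 satellite cell markers 2 were higher and 1 lower, at 8.97 to 13.9 against 17.2 to 22.4 CPM. The part of these cells in the troponin and tropomyosin values was not tested.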

How the data were processed

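The submitters' processing notes and the study's methods name STAR 2.5.4b for mapping to GRCm38, after demultiplexing with bcl2fastq and trimming with cutadapt, and Rsubread 2.6.4 for counting the read pairs of polyadenylated RNA. The deposited raw counts were summed by the authors over the exons of each gene, without duplicate, multimapping or poorly mapped reads, and genes under 50 reads in total were removed. The deposited FPKM, in which the authors divided these counts by exon width, served only as a check. The table's fold changes, p-values and mean normalized signal, the authors' output of DESeq2 1.32.0, were not used. The annotation release and the use of strand are not given in the sources used here.

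All 14012 genes were tested with edgeR 4.0.16 in R 4.3.3 (glmQLFit and glmQLFTest, TMM factors, the label as the only term, Benjamini-Hochberg adjustment over all genes, adjusted p under 0.01). SEs are the fold change divided by the root of the test statistic. Ratios between isoforms, on counts over exon width, were compared by exact permutation with scipy 1.17.1. The members and the gene lists were chosen with earlier results of these data known. Named from the lists were genes past the threshold with an absolute log2 fold change of at least 1 and no overlap, at most the 6 largest per list, and always Acta1, Neb, Tnni3, Tpm4, Myh7 and Myh4. A gene that this rule would name is not reported here. Alternatives covered scaling, filter, depth (seed 11), threshold, DESeq2 1.42.0, the replicate number and each library left out. Nebl, Esrp1, Mymk, Mymx and 5 cardiac markers were not analysed here.

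The most abundant member, Tnnt3, reached 371 counts per exon base. The effect of removing duplicate reads at such depth was not tested.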

Additional observations from a re-analysis of the deposited data

Results flagged for a closer look

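Among the 4 control libraries, Tnnt1 in control replicate 3 (12.3 CPM) stood apart from the others (3.53 to 4.71 CPM). The gap to the next control was 0.865 of the range of the 4 values, above the 95% critical value of Dixon's test. In all, 28 sets of 4 values were looked at, and chance marks about 1 in 20 of them. Without this control the log2 fold change of Tnnt1 was 4.23 (edgeR), against 3.68 with it. Control 3 was also the highest control in Tnnc1 (5.65 CPM), Tnni1 (3.29 CPM) and Myh7 (39.9 CPM).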

How the results depend on the processing

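The 5 higher and 5 lower genes were called in the same numbers under every alternative, except that library totals alone gave 4 lower, without Tpm2, and that leaving out any control, knockout 3 or knockout 4 gave 4 higher, without Tpm3. All 10 log2 fold changes kept their direction under all 17 alternatives. The ratios between slow and fast genes ranged, with 1 library left out, over 6.0 to 6.56 for troponin I, 4.56 to 5.25 for troponin T, 5.76 to 6.47 for troponin C and 2.84 to 3.27 for tropomyosin. In a paired comparison with the replicate number as a block, the differences stayed at 6.33, 4.93, 6.15 and 3.07, with a p of 0.125 each by exact sign permutation, the smallest that 4 pairs allow. Deviations of same-numbered libraries from their group means had correlations of 0.118, 0.0031, 0.42 and 0.138. Differently numbered libraries were not compared, so these values cannot decide whether the numbers pair the mice. The replicate block in edgeR left 5 higher and 5 lower. Library totals alone gave 12 higher partners, 11 higher and 7 lower fibre type regulators, 7 higher and 2 lower splicing factors and 0 lower embryonic genes, and log2 ratios of the family sums of -0.62, -0.55, -0.80 and -1.0 in the order of the text. This scaling shifts the median of all genes by over 0.6 on the log2 scale and calls 8498 of them higher and 873 lower. RLE, upper-quartile, DESeq2, a filter on low counts, thinning and scaling without the most abundant genes changed no call among the 10 genes. The low counts of the slow genes in the control libraries limit the precision of the control shares and folds.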
